A study of Mus musculus with 2 samples.

Results

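The genes described here belong to 13 families of homeobox transcription factors outside the Hox clusters: Msx, Dlx, Alx, Prrx, Barx, the sine oculis homologs (such as Six2), Pbx, Meis, Irx, Pitx, Otx, Emx and Lhx. They were taken by symbol alone, as a family name followed by a number, and 48 of the 23930 genes measured matched. Of the symbols in RefSeq that fit this pattern, Meis1 and Prrx1 were not analysed here. The RNA came from cranial sutures, the fibrous joints between the skull bones, of wildtype mouse pups at postnatal day 3, with the sagittal, coronal and lambdoid sutures pooled. There were 2 libraries of 1 group, called library 1 and library 2 here after their titles, and both carry batch number 1. The labels name suture stem cells as the cell type, but the protocol describes tissue with no sort, so the libraries were read as bulk tissue. Whether separate pups gave the libraries is not stated, so their spread may be technical, and no comparison between conditions could be made.

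Homeobox genes code for DNA-binding proteins that give cells a regional identity. The head in front of the hindbrain is built largely without Hox genes, and families such as Msx, Dlx, Alx and Otx do the patterning there. In the skull vault, Msx2 and Alx4 are known from human disorders in which sutures close early or bone fails to form in the parietal bones, Six2 is used as a marker of suture progenitors, and Dlx5 and Dlx3 act in bone-forming cells. Pbx and Meis proteins are partners that bind DNA together with other homeobox proteins.

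All 48 members share a homeobox, and its most conserved stretch is shown here. It sorts whole families into classes, and no family was split between classes. In the GENCODE M21 transcripts of all 48 genes the 8 codons that begin with the fixed tryptophan of the recognition helix were found once each. The codon in capitals is the one numbered 50 in the homeodomain, whose residue is known to steer which bases are preferred beside a TAAT core. It coded for glutamine in 25 members, lysine in 11, alanine in 6, glycine in 4 and isoleucine in 2. Coordinates are those of mm10, and each stretch is given 5′ to 3′ on the gene's own strand.
Msx1: tggttcCAGaaccgtcgcgctaag at chr5:37821492-37821515, minus strand, exon 2
Dlx2: tggttcCAGaaccgccgatccaag at chr2:71544892-71544915, minus strand, exon 3
Prrx2: tggttcCAGaaccgccgtgccaag at chr2:30879495-30879518, plus strand, exon 3
Barx1: tggtatCAAaatcggaggatgaaa at chr13:48665450-48665473, plus strand, exon 3
Lhx2: tggtttCAGaatgcccgggccaag at chr2:38368845-38368868, plus strand, exon 5
Emx2: tggtttCAGaaccggagaacgaaa at chr19:59463889-59463912, plus strand, exon 3
Six2: tggttcAAGaaccggcggcagcgc at chr17:85687419-85687442, minus strand, exon 1
Otx2: tggtttAAGaatcgaagagctaag at chr14:48659300-48659323, minus strand, exon 5
Pitx3: tggttcAAGaaccggcgcgccaag at chr19:46136579-46136602, minus strand, exon 4
Irx3: tggttcGCCaacgcgcgccggcgc at chr8:91800514-91800537, minus strand, exon 2
Pbx2: tggttcGGTaacaagcgaattcgc at chr17:34594810-34594833, plus strand, exon 6
The glutamine class held all Msx, Dlx, Alx, Barx, Emx and Lhx members and Prrx2, and the lysine class held the sine oculis homologs and the Otx and Pitx families. Alanine marked the Iroquois genes and glycine the Pbx genes, while Meis2 and Meis3 carried isoleucine. In the glutamine class 16 of 25 members were detected and in the lysine class 8 of 11, where detected means at least 1 CPM (reads of a gene scaled to the library's total, as the authors deposited them) in both libraries.

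Library 1 held 5663344 reads and library 2 held 15802610, counted on 1 short amplicon per gene, and 3 reads, the limit that a count of 0 allows, equal 0.530 and 0.190 CPM. Intervals and limits cover counting error only, because the reads carry no molecular identifiers. Amplicons differ in efficiency, and an order among genes is therefore one of reads and not of transcripts. The libraries differed in their levels of tissue markers. Of 12 skeletal muscle markers 11 were higher in library 1 (summed level 45382 CPM against 14525 CPM in library 2). By contrast, all 12 olfactory sensory neuron markers were higher in library 2 (124 CPM in library 1 against 678 CPM). So were all 8 tooth germ markers (119 against 535 CPM) and all 12 chondrocyte markers (3033 against 6912 CPM). Higher here means called by the exact binomial test described below. Of all targets at a mean of 10 CPM or more, that test called 32.5% as higher in library 1 and 37.0% in library 2. Over all targets the shares were 17.1% and 20.0%. In a bulk library, fewer cells of a type and less RNA per cell cannot be told apart.

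Of the 48 homeobox genes, 32 (66.7%) were detected in both libraries, against 55.0% of all 23930 targets. A further 8 reached 1 CPM in one library and 8 in neither. At 10 CPM or more in both libraries there were 18 members. The median of the members' mean levels was 9.88 CPM, beside 3.29 CPM over all targets. Their summed share of reads was 0.0881% in library 1 and 0.121% in library 2. By comparison, 3 of the 31 Hox cluster genes measured were detected, and the whole Hox set summed to 10.1 CPM and 16.8 CPM in libraries 1 and 2. Meis and Pbx genes, known as Hox cofactors, were thus read where few Hox genes were.

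**Figure D1:**
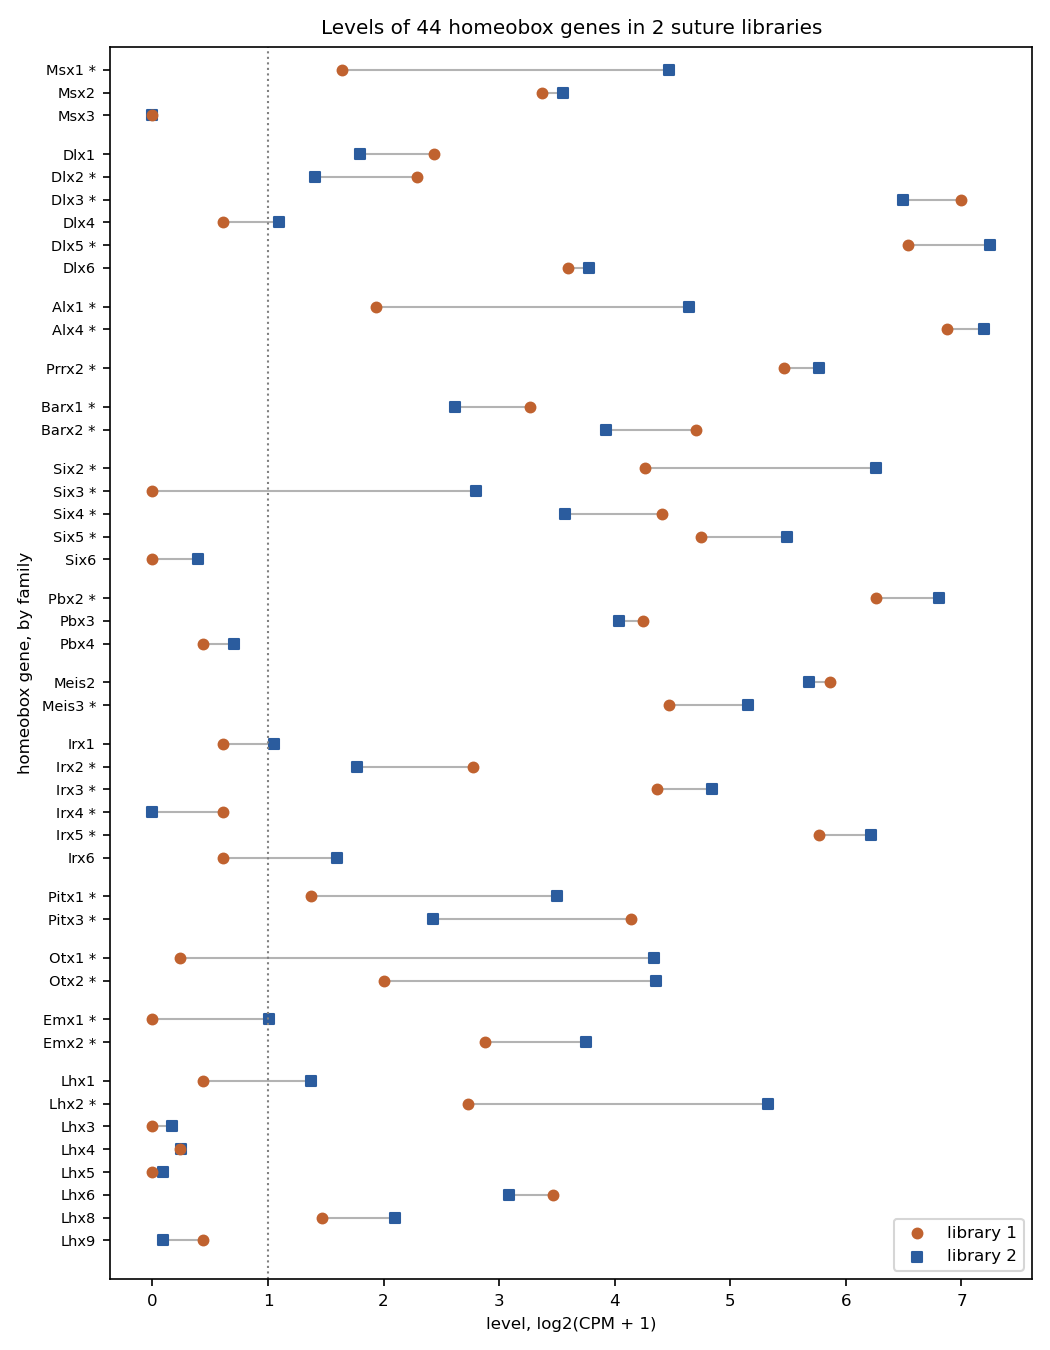
Level of 44 of the homeobox genes as log2(CPM + 1) in library 1 (circles) and library 2 (squares), grouped by family; a star marks a gene called by the exact binomial test and the dotted line stands at 1 CPM. Alx4, Dlx5, Dlx3 and Pbx2 are the highest, and Otx1, Msx1, Six3 and Alx1 show the widest gaps, all toward library 2.

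The mesenchymal and bone families were led by 3 genes. Alx4, a regulator of skull vault and limb mesenchyme, stood at 117 and 146 CPM in libraries 1 and 2, the highest mean of all members (131 CPM ± 20.6, SD, n = 2). Dlx5, which promotes osteoblast differentiation and patterns the lower jaw, stood at 91.8 and 151 CPM. Dlx3, which acts in osteoblasts, teeth and hair, stood at 127 and 89.0 CPM. The lead among these 3 thus differed by library, with Dlx3 highest in library 1 and Dlx5 highest in library 2. The leader's counting interval overlapped that of Alx4 in each library, however. In library 1 it ran from 118 to 137 CPM for Dlx3 and from 108 to 126 CPM for Alx4. In library 2 it ran from 145 to 157 CPM for Dlx5 and from 140 to 152 CPM for Alx4. Prrx2, a marker of craniofacial and limb mesenchyme, was read at 43.3 and 53.6 CPM. Dlx6, the chromosomal neighbour of Dlx5, was about an order of magnitude lower in reads, at 11.1 and 12.7 CPM. Msx2, a repressor in calvarial osteoprogenitors that responds to BMP signals, was nearly equal in both libraries at 9.36 and 10.8 CPM. Its relative Msx1, needed for palate and teeth in mice, was not, at 2.12 and 21.2 CPM, and was high in library 2.

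The lower members of these families were Dlx1 (4.41 and 2.47 CPM) and Dlx2 (3.88 and 1.65 CPM), which pattern the upper jaw and forebrain interneurons. Dlx4 reached 1 CPM in library 2 only, at 0.530 and 1.14 CPM. Barx1, known from molar tooth mesenchyme and stomach, stood at 8.65 and 5.13 CPM, and Barx2, which acts in muscle and glandular epithelium, at 25.1 and 14.2 CPM. Alx1, needed for the front of the face in humans, was low in library 1, at 2.83 CPM, and higher in library 2, at 23.9 CPM. No read of Msx3, a gene of the dorsal neural tube, was found in either library, which allows up to 0.530 CPM and 0.190 CPM.

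Among the sine oculis homologs, a family that works with Eya coactivators in muscle, sensory organs and kidney, 4 of 6 genes were detected in both libraries and all 4 exceeded 10 CPM there. Six4, on chromosome 12, stood at 20.3 and 10.9 CPM. Six5 stood at 25.8 and 44.0 CPM. Six2, the progenitor marker, stood at 18.2 and 75.5 CPM, above both Six4 and Six5 in library 2. In library 1 it was below Six5. Its ratio to Six4 there was 0.896, with a counting interval from 0.680 to 1.18 that holds 1. The eye and forebrain genes of the family were at or near 0 in library 1: Six3 had no read there and 94 reads in library 2 (5.95 CPM), and Six6 had 0 and 5 reads.

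The cofactor families were read broadly. Pbx2 stood at 75.8 CPM in library 1 and 111 CPM in library 2 and Pbx3 at 18.0 and 15.4 CPM. Pbx4, known from testis, stayed below 1 CPM in both libraries. Meis2 was steady at 57.2 and 50.2 CPM, and Meis3 stood at 21.2 and 34.7 CPM. All of Pbx2, Pbx3, Meis2 and Meis3 thus exceeded 10 CPM in both libraries. Among 4 further genes of the same structural class, Pknox1 (35.3 and 31.6 CPM), Tgif1 (32.0 and 33.8 CPM), Mkx, a tendon regulator (21.9 and 12.1 CPM), and Pknox2 (4.06 and 6.58 CPM) were all detected, and Mkx was called, as higher in library 1.

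Of the Iroquois genes, which lie in clusters on chromosomes 8 and 13, the chromosome 8 pair led. Irx5, mutated in a human syndrome of face and bone, stood at 53.5 and 73.2 CPM and Irx3 at 19.6 and 27.7 CPM. The chromosome 13 genes were lower, with Irx2 at 5.83 and 2.41 CPM, Irx1 at 0.530 and 1.08 CPM, and Irx4, a ventricle gene of the heart, at 3 reads in library 1 and none in library 2. Irx6 stood at 0.530 and 2.03 CPM. Irx transcripts share the longest exact stretches of any relatives here, up to 88 bases between Irx3 and Irx6 and 65 between Irx2 and Irx5, beside a median of 17.5 bases over 92 pairs within families. Amplicon positions were not used here, so whether reads of Irx genes were split between relatives is uncertain.

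The remaining families are known mainly from the front of the head, pituitary, eye, teeth and nervous system. Pitx1, a gene of jaw, hindlimb and pituitary, stood at 1.59 and 10.3 CPM, and Pitx3, known from lens, midbrain dopamine neurons and muscle, at 16.6 and 4.37 CPM. These 2 relatives were thus high in opposite libraries. Otx2, required for forming the anterior head, stood at 3.00 and 19.5 CPM. Otx1, its relative in forebrain and sensory organs, had 1 read in library 1 and 304 reads (19.2 CPM) in library 2. Emx2, a gene of cortex, olfactory epithelium and urogenital tract, stood at 6.36 and 12.5 CPM, and Emx1, a cortex gene, at 0 and 1.01 CPM.

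Of the 8 LIM homeobox genes 3 were detected in both libraries. Lhx2, which acts in olfactory neurons, eye and hair follicle, stood at 5.65 and 39.0 CPM. Lhx6 and Lhx8, expressed in jaw and tooth mesenchyme and in forebrain, stood at 10.1 and 7.47 CPM and at 1.77 and 3.29 CPM. Lhx1 reached 1 CPM in library 2 only (0.353 and 1.58 CPM). Lhx3, Lhx4, Lhx5 and Lhx9 had at most 3 reads in any library, and Lhx3 and Lhx4 are known from the pituitary. The partner proteins of this family were read far more than its members: Ldb1, the bridging cofactor, at 240 and 336 CPM, Lmo4 at 177 and 151 CPM and Ssbp4 at 85.1 and 111 CPM, and 8 of 9 partner genes were detected. Library 2 held more of 5 of these 9 in the exact binomial test and library 1 more of 2, and the other 2 were not called, beside 69.5% called in either direction among all targets whose mean reached 10 CPM, as that of 7 of these 9 did.

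Differences between the libraries were tested gene by gene on recovered reads with an exact two-sided binomial test, adjusted over all 23930 targets by Benjamini and Hochberg at 0.05. It compares 2 libraries of the same kind of tissue, not conditions, and covers counting error only. Of the 48 homeobox genes 28 (58.3%) were called, against 37.0% of all targets. Of these, 20 were higher in library 2, where 20.0% of all targets were, and 8 were higher in library 1, where 17.1% of all targets were. Calls grow with depth, so members were also set beside targets of like level. At a mean of 10 CPM or more, 18 of 24 members were called (75%), against 69.5% of such targets, which is close to the background. By direction, 14 of the 24 (58.3%) were higher in library 2, where the background was 37.0%, and 4 (16.7%) in library 1, where it was 32.5%.

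Large differences lay toward library 2. Among the 36 members whose mean reached 1 CPM, 9 were called and at least 4-fold higher in library 2 (25%), against 4.69% of targets at that level, and 0 of 36 were at least 4-fold higher in library 1 with a call of the exact binomial test, against 1.65%. Six2, Alx1, Msx1, Otx1, Otx2, Pitx1, Lhx2 and Six3 were among the 9. At a mean of 10 CPM or more it was 5 of 24 (20.8%) against 1.71%. The median difference of log2(CPM + 1), library 1 minus library 2, was -0.46 over the 36 members and -0.07 over all 14097 targets whose mean reached 1 CPM. The scale understates differences of genes near 1 CPM. Across all genes the libraries had a Pearson r of 0.962 on this scale, and across the 48 members an r of 0.841 (Spearman rho 0.836), values that describe genes and not replicates. No test of the list as a whole was made, since the members were chosen with results of these libraries known.

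**Figure D2:**
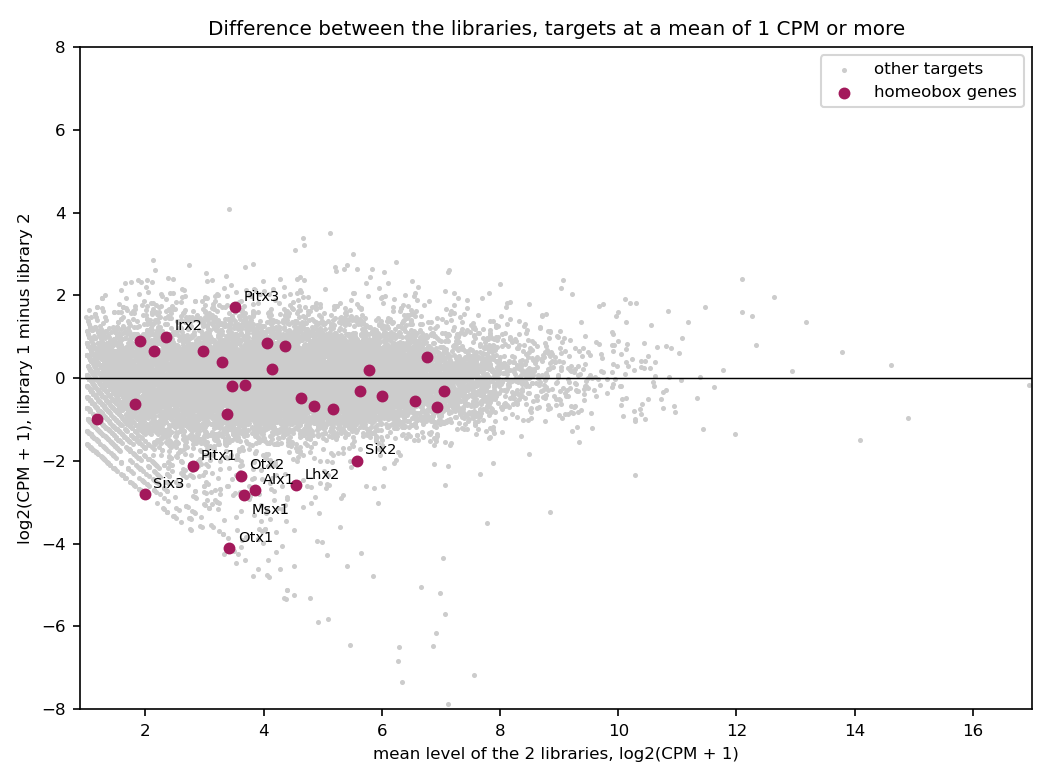
Difference of log2(CPM + 1), library 1 minus library 2, against the mean level, for all targets at a mean of 1 CPM or more (grey) and 32 of the homeobox genes among them (magenta); members that differ by 1 or more are named. Of the named genes Pitx3 and Irx2 lie toward library 1, and Otx1, Msx1, Six3, Alx1, Lhx2, Otx2, Pitx1 and Six2 toward library 2.

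Otx1 had the largest difference of the members. On 1 read in library 1 and 304 in library 2 its ratio was 109 (exact 95% interval 19.4 to 4317) with an adjusted p of 1.49e-37 in the exact binomial test. Six3, with no read in library 1, was 11.2-fold higher in library 2 when library 1 was set at the limit of 3 reads (adjusted p = 4.46e-12, exact binomial test). The exact 95% interval of that ratio, which also holds the counting error of library 2, begins at 8.95. Both values rest on few reads of library 1, so their intervals are wide or open. The fold of Msx1, from 12 and 335 reads, had an interval from 5.65 to 19.6 toward library 2. Alx1 was 8.47-fold higher (interval 5.15 to 15.0), Lhx2 6.91-fold (interval 4.84 to 10.2) and Six2 4.15-fold (interval 3.39 to 5.13). Both Otx2 and Pitx1 were 6.49-fold higher, with intervals from 3.99 to 11.3 and from 3.34 to 14.4. The adjusted p of the exact binomial test lay between 4.25e-62 for Six2 and 8.45e-12 for Pitx1 among these genes. Emx2 (1.96-fold), Six5 (1.71-fold), Dlx5 (1.64-fold) and Meis3 (1.64-fold) were higher in library 2 by less. Pbx2, Irx3, Irx5, Alx4 and Prrx2 were called at 1.24-fold to 1.47-fold, and Emx1 was called on 0 and 16 reads.

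Toward library 1 the differences were smaller. Pitx3 was 3.80-fold higher in library 1 (interval 2.76 to 5.26, adjusted p = 5.73e-16 in the exact binomial test), Irx2 2.42-fold and Dlx2 2.36-fold. Six4 was 1.87-fold, Barx2 1.77-fold, Barx1 1.69-fold and Dlx3 1.43-fold higher, and Irx4 was called on 3 reads against 0. For uncalled members whose mean reached 10 CPM, the interval of the fold, library 2 over library 1, ran from 0.771 to 1.00 for Meis2 and from 0.675 to 1.09 for Pbx3. For Msx2 it ran from 0.840 to 1.596 and for Dlx6 from 0.858 to 1.54. A difference of 2-fold thus lay outside the counting interval of each of these 4 genes.

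The exact binomial test holds no spread between samples, so the calls were repeated with an assumed spread, chosen after seeing the data, in the edgeR exact test. With a coefficient of variation of 0.1, 14 members were called as higher in library 2 (background 11.9%) and 4 in library 1 (background 9.1%), 18 in all against 21.0% of all targets. Alx4, Prrx2, Pbx2, Irx3, Irx5, Dlx3, Dlx2, Barx1, Emx1 and Irx4 lost their call there. At 0.4, 3 members, Otx1 and Six3 among them, were called as higher in library 2 (background 0.631%) and 0 members in library 1 (background 0.0585%; 1 had an unadjusted p under 0.05), where 0.69% of all targets were called in either direction. Asking for a fold of 2 or more in the exact binomial test left 14 of the 48 called (background 14.8%), 10 in library 2 (background 8.18%) and 4 in library 1 (background 6.67%). The backgrounds in this paragraph are over all targets and were not matched by level. The median level of all targets was 3.29 CPM, beside 9.88 CPM for the members.

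Marker lists of tissues and cell states were set beside these genes, and they did not all lie toward library 2. On the log2 scale of library 1 minus library 2, skeletal muscle markers had a median of 1.51 and proliferation markers 0.53. Forebrain neuron markers had a median of -0.03, and the members -0.46. These medians are over genes whose mean reached 1 CPM. The olfactory list had a median difference of -3.10 on the same log2 scale, led by Omp (11.1 and 247 CPM), and all 12 of its markers were above 0 in both libraries. Nasal and oral epithelium markers were higher in library 2 in 9 of 10 cases, with Krt14 the exception, and summed to 111 and 627 CPM. Tooth germ markers included Amelx at 91.3 and 380 CPM, with Odam and Klk4 at 0 in library 1. Schwann cell and glia markers summed to 596 and 1517 CPM, with 6 of 7 higher in library 2, and meningeal markers to 265 and 579 CPM, with 6 of 9 higher in library 2. General neuron markers were higher in library 2 in 8 of 8 cases (193 and 737 CPM), while none of 8 forebrain neuron markers was called by the exact binomial test (39.6 and 39.3 CPM summed), with Slc17a7 at 21.4 and 21.9 CPM. Retina markers summed to 1.59 and 4.68 CPM, with Pde6b at 0 in both libraries. Most of that sum was Crx, called as higher in library 2 on 5 and 48 reads. The 9 pituitary markers summed to 10.1 and 15.9 CPM, and Prl, Pou1f1 and Fshb were among those at 0 in both libraries. Of the 9, 3 were detected in both. Gh, at 7 and 103 reads, was called as higher in library 2. Pomc (34 and 62 reads) and Lhb (14 and 76 reads) were not called. Of 8 osteoblast markers 6 were higher in library 2, with Col1a2 and Sparc higher in library 1. Of 7 proliferation markers 4 were higher in library 1 and 3 had no call (511 and 371 CPM summed). At a mean of 10 CPM or more, where the osteoblast, proliferation and skeletal muscle lists lie, the background stated above is 69.5% called in either direction. By direction it is 37.0% higher in library 2 and 32.5% in library 1. That level also holds 11 of 12 chondrocyte markers and 9 of 10 nasal and oral epithelium markers. For the other lists, which hold more genes below that level, the shares over all targets are 20.0% higher in library 2 and 17.1% in library 1. The part of these tissues in the differences of Otx1, Otx2, Lhx2, Six3, Alx1, Msx1, Pitx1, Six2 and Pitx3 was not tested.

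**Figure D3:**
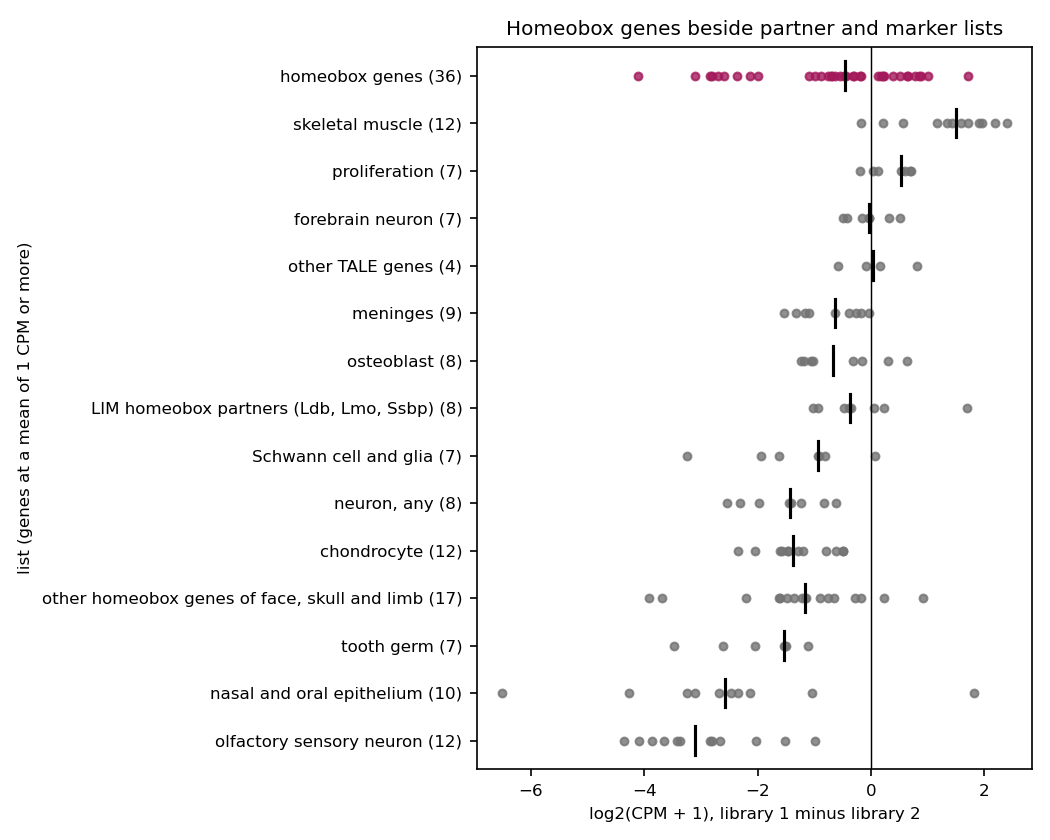
Difference of log2(CPM + 1), library 1 minus library 2, for each gene at a mean of 1 CPM or more (points) with the list's median (bars), for the homeobox genes (top row, 36 genes) and lists of partner genes and of markers of tissues and cell states; numbers of genes stand in brackets. Homeobox genes spread from Otx1 toward library 2 to Pitx3 toward library 1, with olfactory markers far toward library 2 and skeletal muscle markers toward library 1.

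Ratios between relatives show how the make-up of a family differed between the libraries, and they depend neither on the scaling to library totals nor, when the same pair is compared, on amplicon efficiency. Among the 29 pairs within families compared here, each gene with a mean that reached 1 CPM and reads in both libraries, the counting interval of the change of ratio excluded 1 in 22, above it in 10 and below it in 12. These pairs share genes and are not independent. No such count was made for pairs of other genes, so the 22 cannot be read as particular to these families. Of all targets at a mean of 10 CPM or more, 69.5% were called between the libraries by the exact binomial test. Msx1 and Msx2 changed places, with 0.226 Msx1 reads per Msx2 read in library 1 and 1.97 in library 2, a change of 8.70-fold (interval 4.43 to 18.3). Alx4 made up 97.2% of Alx reads in library 1 (exact binomial interval 95.7% to 98.3%) and 80.1% in library 2 (78.6% to 81.6%). Six2 took 19.8% of its family's reads in library 1 and 46.6% in library 2, with intervals from 16.5% to 23.5% and from 44.6% to 48.6%. The ratio of Pitx1 to Pitx3 changed the most, 24.7-fold (interval 11.5 to 58.2), from 0.0957 to 2.36. Among Lhx reads Lhx6 led in library 1 with 54.8% and Lhx2 in library 2 with 75.3%. Dlx3 and Dlx5 also exchanged the lead, at 1.38 Dlx3 reads per Dlx5 read in library 1 and 0.589 in library 2. By contrast the ratio of Irx3 to Irx5 was 0.366 and 0.379, a change of 1.03-fold (interval 0.806 to 1.33). The ratio of Barx1 to Barx2 changed 1.05-fold (interval 0.681 to 1.62), and that of Dlx1 to Dlx2 1.32-fold (interval 0.577 to 3.01).

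**Figure D4:**
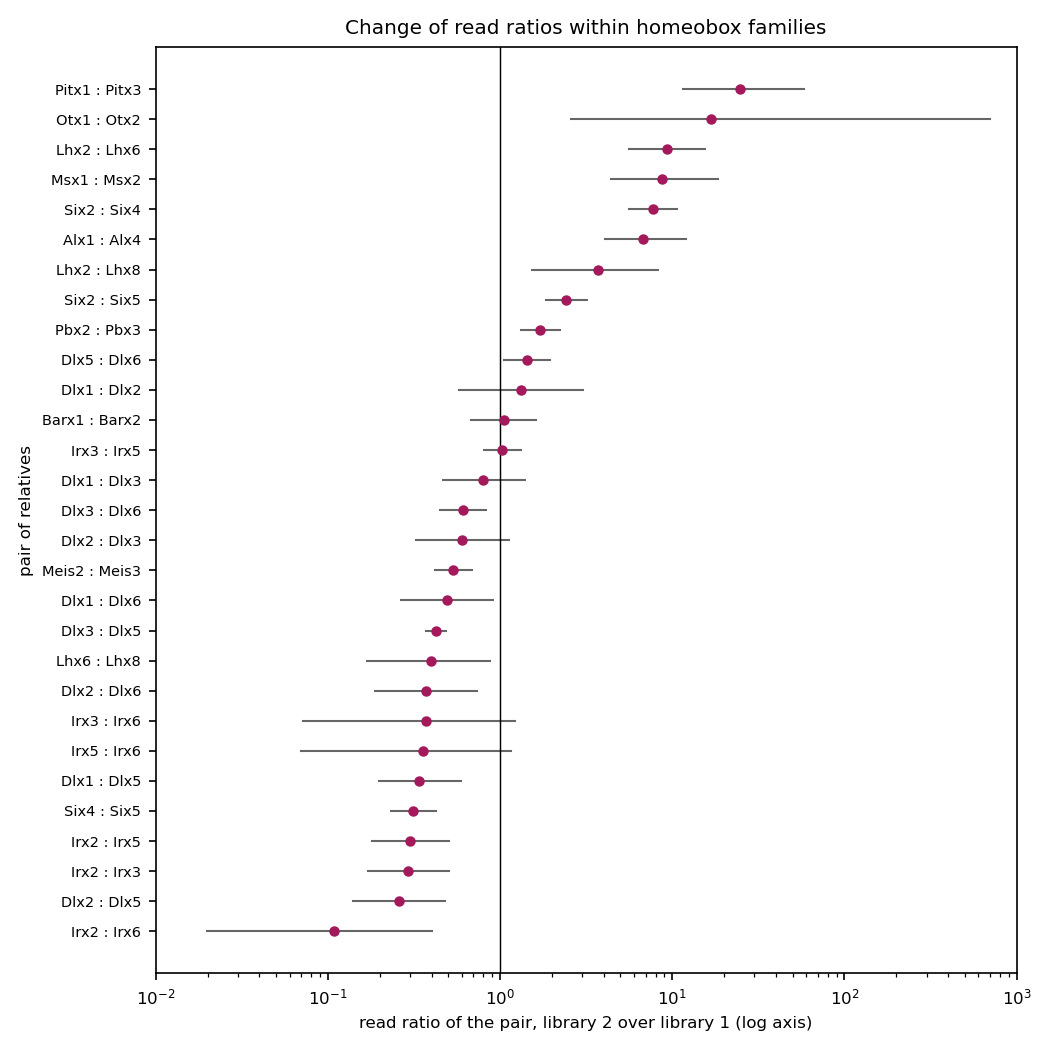
Change of the read ratio of 2 relatives, library 2 over library 1 (log axis), for 29 pairs, with exact 95% counting intervals as lines. Pitx1 : Pitx3, Otx1 : Otx2, Lhx2 : Lhx6, Msx1 : Msx2 and Six2 : Six4 lie farthest to the right, whereas Irx3 : Irx5 and Barx1 : Barx2 lie near 1.

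Several members lie side by side in the genome, which the symbols do not show. Dlx1 and Dlx2 lie 9.43 kb apart on chromosome 2, Dlx5 and Dlx6 9.24 kb apart on chromosome 6, and Dlx3 and Dlx4 15.2 kb apart on chromosome 11, each pair on opposite strands. Dlx1 and Dlx2 differed in the same direction and Dlx1 was not called (adjusted p = 0.0819, exact binomial test). Six2 and Six3, 55.0 kb apart on chromosome 17 and on opposite strands, were both higher in library 2. Irx3 and Irx5, 556 kb apart, were both higher in library 2, while Irx2 and Irx4 on chromosome 13 were both called as higher in library 1, Irx4 on 3 reads. Other neighbours differed in opposite directions on the log2 scale of library 1 minus library 2. Dlx3 stood at 0.51 and Dlx4 at -0.48, Irx2 at 1.00 and Irx1 at -0.44, and Six4 at 0.84 and Six6 at -0.40. Of these, Dlx3, Irx2 and Six4 were called, and their partners were not.

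In the mm10 annotation 13 members have an exon overlapped by a gene on the opposite strand, and it is not stated whether reads were assigned by strand, so such pairs cannot be told apart where an amplicon lies in the overlap. Otx2os1 (0 and 49 reads) and Six3os1 (0 and 20 reads), partners of Otx2 and Six3, were likewise higher in library 2. Elovl3, which overlaps Pitx3, was higher in library 1 at 2.30 and 0.506 CPM, below Pitx3 in both libraries. Irx3os stood at 5.47 and 10.1 CPM and was higher in library 2, as Irx3 was. Emx2os, at 5.47 and 3.86 CPM, was not called, whereas Emx2 was higher in library 2.

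The Eya and Dach genes, whose proteins act with those of the sine oculis homologs, were detected in 5 of 6 cases. Eya4 stood at 16.8 CPM in library 1 and 44.7 CPM in library 2 and Eya2 at 10.1 and 27.8 CPM, and both were higher in library 2. Eya3 (27.5 and 21.3 CPM) and Dach1 (5.12 and 2.47 CPM) were higher in library 1, and Eya1 was not called (7.59 and 7.91 CPM). Of the 6 genes, 2 were called as higher in library 1 and 2 in library 2, beside 17.1% and 20.0% of all targets. Because partners were called in both directions, a direction shared with a called sine oculis homolog tells nothing of a link. A link between particular homologs and partners was not tested.

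Promoters are shown for the pair that exchanged places, Msx1 and Msx2, and for the neighbours Six2 and Six3. Each is the 250 bases before the gene's start in RefSeq, build GRCm38.p6, whose coordinates are those of mm10, with CG dinucleotides in capitals.
Msx1: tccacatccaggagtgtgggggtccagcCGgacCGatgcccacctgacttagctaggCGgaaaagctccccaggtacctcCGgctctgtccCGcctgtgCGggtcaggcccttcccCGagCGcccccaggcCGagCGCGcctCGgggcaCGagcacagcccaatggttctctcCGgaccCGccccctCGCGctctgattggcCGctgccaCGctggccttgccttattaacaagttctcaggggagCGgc at chr5:37824586-37824835, minus strand
Msx2: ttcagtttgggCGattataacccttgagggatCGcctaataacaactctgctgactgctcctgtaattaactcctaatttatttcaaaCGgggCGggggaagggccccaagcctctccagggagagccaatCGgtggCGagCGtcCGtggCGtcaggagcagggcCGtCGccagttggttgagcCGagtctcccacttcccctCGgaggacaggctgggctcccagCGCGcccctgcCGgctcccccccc at chr13:53472781-53473030, minus strand
Six2: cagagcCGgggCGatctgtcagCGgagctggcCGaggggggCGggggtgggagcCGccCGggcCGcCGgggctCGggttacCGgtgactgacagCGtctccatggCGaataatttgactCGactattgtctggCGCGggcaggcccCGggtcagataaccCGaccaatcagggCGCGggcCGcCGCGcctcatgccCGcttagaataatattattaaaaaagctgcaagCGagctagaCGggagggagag at chr17:85688255-85688504, minus strand
Six3: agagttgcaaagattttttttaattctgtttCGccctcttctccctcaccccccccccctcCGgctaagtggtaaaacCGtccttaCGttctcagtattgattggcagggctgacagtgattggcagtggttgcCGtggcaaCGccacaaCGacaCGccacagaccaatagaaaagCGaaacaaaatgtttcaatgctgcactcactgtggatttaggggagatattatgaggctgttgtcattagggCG at chr17:85620584-85620833, plus strand
These hold 20, 16, 26 and 10 CG dinucleotides. The RefSeq table matched 30 members with 38 promoters. Promoters of Alx1, Alx4, Barx2, Dlx3, Dlx4, Dlx5, Dlx6, Irx1, Irx5, Irx6, Lhx5, Otx1, Pbx3 and Pitx1, among others, were not used here. Over the 38, the median ratio of observed to expected CG was 0.696, beside 0.506 for 21114 promoters of genes on the panel and 0.374 for all 32851 promoters, and 68.4% of the members' promoters reached 0.6 against 43.0% and 33.95%. Members at or near 0 reads lay on both sides of 0.6, with Msx3 and Six6 at 0.805 and 0.691, Lhx4 and Lhx9 at 0.564 and 0.223, and the Lhx3 promoters at 0.706 and 0.459. The palindrome TAATTA, a core that many homeodomains bind, was found in 3 of the 38 (7.89%), 1 of Msx2 and 2 of Otx2, against 4.84% of all promoters. TAATCC, searched on both strands as the core preferred by Otx and Pitx proteins, was found in 1 of 38 (2.63%) against 6.25%. TGACAG, a Meis core, was found in 6 (15.8%) against 15.9%, and TCAGGTT, the start of a site known for sine oculis homologs, in 2 (5.26%) against 3.49%. In the same order, the shares over promoters of genes on the panel were 4.45%, 5.87%, 15.2% and 3.33%. Some genes, such as Otx2 and Lhx6, gave several promoters, and some of Otx2 overlap, so the 38 are not independent. A match or its absence in these windows says nothing of binding.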

How the data were processed

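RNA of 2 libraries (1 group, day 3) was measured with the Ion AmpliSeq mouse transcriptome panel, 1 amplicon per gene, per the labels' protocols; mm10 is the build per the submitters' processing notes. An aligner, a counter or a filter was not given in the sources used here. For 23930 targets CPM values were deposited by the authors. Every value was a whole multiple of 1 read (100% within 0.01 of a read), so reads were recovered. The test on them, an exact two-sided binomial test against the library totals (scipy 1.17.1) adjusted by Benjamini and Hochberg over all targets, called 8863 targets. Levels are CPM with exact 95% Poisson or binomial intervals, and differences use log2(CPM + 1). On simulated reads for the 23930 targets this test called 99% of 100 genes changed 2-fold, 90% of 100 changed 1.5-fold and 0.0295% of unchanged genes, with counting error only. The changed genes were drawn at a pooled level of 10 CPM or more and raised in library 1 only. Their shares therefore do not cover members below that level or changes toward library 2. Scaling factors came from edgeR 4.0.16 and DESeq2 1.42.0. A date stood for 27 gene symbols, restored from target names. Positions and transcripts came from GENCODE M21, promoters from RefSeq. Members, gene lists and tests were chosen with earlier results of these data known. Members whose mean reached 10 CPM are given with both values and the others by values or reads, except some members that are not reported here but enter the counts; of partner and marker lists, counts and leading genes are given, and other genes were chosen after their values were seen.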

Additional observations from a re-analysis of the deposited data

How the results depend on the processing

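No paired analysis was possible because the libraries form 1 group. Detection in both libraries held 32 members at 1 CPM, 36 at 0.5 CPM, 29 at 2 CPM and 18 at 10 CPM, and 32 under each of 3 other scalings; with one library left out it ranged from 32 to 40. The number of members called between the libraries, 28, came to 18 when adjusted over targets at a mean of 10 CPM or more where 24 members enter, and to 14 with a fold of 2 or more. In the same order, members higher in library 1 came to 4 and 4 from 8, and members higher in library 2 to 14 and 10 from 20. With library 2 thinned to the depth of library 1, 5 members were higher in library 1 and 19 in library 2. A spread between samples was assumed after seeing the data, in the edgeR exact test: at a coefficient of variation of 0.1, 18 members were called (4 higher in library 1, 14 in library 2), and at 0.4, 3 were called (Otx1 and Six3 among them, all higher in library 2). At 0.4 the number higher in library 1 was 0, with 1 member at an unadjusted p under 0.05 in that edgeR test and 10 toward library 2. The median difference of the members stayed between -0.49 and -0.33 under the scalings, pseudocounts and filters tried. No difference of the 36 members that reach a mean of 1 CPM changed direction under the scalings, and Irx6 gained a call under 2 settings. The depth of library 1 limits Otx1, Six3 and other members with few reads there.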

Other observations

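Other homeobox genes of face, skull and limb, outside the 13 families, were read as well, with 11 of 23 detected in both libraries. Zfhx3 stood at 108 CPM in library 1 and 277 CPM in library 2 and Zfhx4 at 58.3 and 92.4 CPM. The exact binomial test placed 13 of the 23 higher in library 2 and 3 in library 1, with 7 not called, against 20.0% and 17.1% of all targets in the 2 directions. Pax3, a gene of neural crest and muscle progenitors, had 3 reads in library 1 and 351 in library 2 (0.530 and 22.2 CPM), and Uncx, a gene known from the somites and olfactory neurons, 2 and 261 reads (0.353 and 16.5 CPM). Tlx3, a gene of sensory neurons, had 0 and 57 reads. Pax7, a marker of muscle satellite cells, was not called at 22.6 and 25.7 CPM although 11 of 12 markers in the skeletal muscle list, which includes it, were higher in library 1. Lmx1b, a gene of limb and skull vault patterning, stood at 5.83 and 19.9 CPM, and its relative Lmx1a went the other way at 16.2 and 8.16 CPM. The part of olfactory, neural or other tissue in these values was not tested.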
